A study of Mus musculus with 6 samples.

Results

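The 35 genes described here were selected by symbol as genes of cytosolic ribosomal proteins, and 1 of them is a paralogue. They were taken from the 20239 genes with a single annotated symbol on the array. A gene was included when its symbol was Rpl, Rplp or Rps followed by a number and at most a short suffix, or was Rpsa. Kinases of the Rps6k series, symbols ending in l (like-genes) and pseudogene symbols containing -ps were left out. The rule used no measured value, but it was chosen with earlier results of these data known. It found 15 proteins of the small (40S) subunit and 19 of the large (60S) subunit. It also found Rpl7l1, a paralogue of Rpl7 whose symbol ends in a digit and therefore met the pattern. A textbook list of 79 ribosomal protein genes shares 34 with this set, and the other 45 are not analysed here.

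RNA came from pericytes, the mural cells that wrap capillaries, isolated from mice of C57BL/6 background and hybridised to 1-colour arrays. The 3 control arrays carry RNA of cultures kept for 5 days without the factor. The 3 PDGF-BB arrays carry RNA of cultures given platelet-derived growth factor BB at 100 ng/ml for 5 days; PDGF-BB is the main ligand of the pericyte receptor PDGFR-β. The age of the mice and the tissue the cells came from are not stated in the labels, nor is it stated whether arrays of a group came from separate isolations. The p-values therefore reflect only how these 6 samples vary, and that variation may be technical. All values are RMA log2 expression values. Changes are the PDGF-BB mean minus the control mean, in log2 units.

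The ribosome translates mRNA with a small subunit that reads the codon and a large subunit that joins amino acids. Each subunit is assembled in the nucleolus from ribosomal RNA and from ribosomal proteins imported from the cytoplasm, most of them present once per ribosome. Most ribosomal protein mRNAs of vertebrates begin with a C followed by a run of pyrimidines, the 5′ terminal oligopyrimidine (TOP) tract. Growth factor signalling through mTORC1 acts on these mRNAs mainly at the step of translation, where LARP1 binds the tract, so that the amount of protein made from them can change without a change in mRNA level.

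Start sites are shown for the 3 genes that passed the test of change and for 5 that did not and have a pyrimidine run at the start. The tract is a feature of many genes of the family. Genes that did not pass and lack the run, such as Rpl23, Rplp0 and Rps3, are not shown. The lines below therefore do not compare genes with and without the run. Each line gives 30 bases, 15 on either side of the start annotated by RefSeq on GRCm38.p6, read 5′ to 3′ on the strand of the gene. Capitals mark a run that begins with C within 5 bases of the start and goes on with at least 4 bases that are C or T; a sequence in lower case throughout has no such run there.
Rpl22, chr4:152325711-152325740, plus strand: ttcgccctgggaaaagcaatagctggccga
Rpl22, second annotated start, chr4:152324421-152324450, plus strand: cgctgcttctggaatgttccagctcccact
Rps25, chr9:44407699-44407728, plus strand: tttttccgacatcttagcgaggctgctgtg
Rpl7l1, chr17:46782642-46782671, minus strand: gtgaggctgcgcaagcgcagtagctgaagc
Rps10, chr17:27635230-27635259, minus strand: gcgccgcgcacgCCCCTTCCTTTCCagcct
Rps27, chr3:90213634-90213663, minus strand: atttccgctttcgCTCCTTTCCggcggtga
Rps6, chr4:86857353-86857382, minus strand: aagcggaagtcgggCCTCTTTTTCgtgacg
Rplp2, chr7:141447636-141447665, plus strand: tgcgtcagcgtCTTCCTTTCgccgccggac
Rpl27a, chr7:109519180-109519209, plus strand: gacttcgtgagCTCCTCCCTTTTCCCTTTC

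RefSeq start windows of 300 bases (250 before and 50 after the start) were matched for 29 of the 35 genes. A pyrimidine run of this kind lay at a start of 16 of the 29 (55.2%), against 3767 of 17492 protein-coding genes (21.5%). The 16 genes with the run had a median log2 change of -0.02, and none of them passed the test in limma. The 13 without it had a median of 0.02, and they include the 3 that passed. The rest of the 13 did not pass, and of all genes on the array 21.5% were called. Whether the run goes with the call was not tested. An annotated start can lie off the true one, so a missing run says only that these letters are not at that position. Other motifs were searched on both strands of the whole window. CCGGAAG, the core bound by ETS factors, was found in 14 of the 29 (48.3%) against 12.9% of protein-coding genes. GCCATNTT, the YY1 motif, was found in 8 (27.6%) against 7.46%. The palindrome TCGCGA was found in 7 (24.1%) against 3.81%, and the genes were Rpl26, Rpl27a, Rps6, Rps9, Rps15, Rps15a and Rps19. CACGTG, the E-box to which MYC binds, was found in 5 (17.2% against 8.91%), and TATAAA in 3 (10.3% against 14.8%). A gene with several windows counts when any of them holds the motif, and CCGGAAG on the opposite strand (CTTCCGG) can overlap a pyrimidine run. A match describes the sequence and does not show that a factor binds there.

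With PDGF-BB the mRNAs of 2 of the 35 genes rose (Rps25 and Rpl7l1), 1 fell (Rpl22) and 32 did not pass the test. The test was limma with Benjamini-Hochberg adjustment over all 20239 genes, and a gene was called at an adjusted p under 0.05. By the same rule 21.5% of all genes were called, 10.1% higher and 11.4% lower. The median log2 change of the 35 genes was -0.01, beside -0.02 over all genes, with 17 changes above 0 and 18 below. The 25th and 75th percentiles of the changes were -0.09 and 0.07. In 6 of the 35 genes the unadjusted p was under 0.05, against 32.7% of all genes. Because RMA equalises the distribution of values over arrays, a change in total ribosomal RNA or mRNA per cell cannot be seen, and all changes are relative to the other genes.

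**Figure D1:**
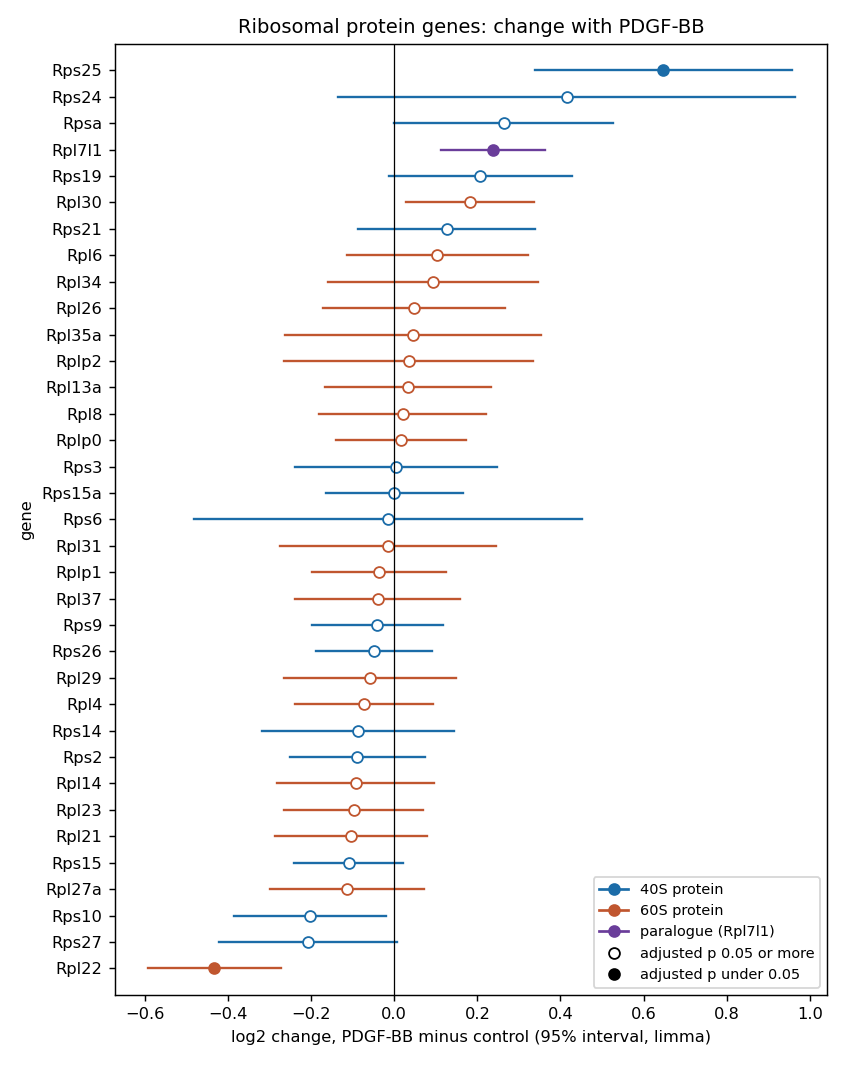
Log2 change with PDGF-BB of each of the 35 ribosomal protein genes (points) with its 95% interval from limma (bars), ordered by change, 3 arrays per group. Filled points mark the 3 called genes, Rpl22 at -0.43, Rpl7l1 at 0.24 and Rps25 at 0.65, and most other points lie within 0.2 of 0.

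The precision of these values sets what could have gone unseen. For 32 of the 35 genes the 95% interval of the change lay inside a 1.5-fold change in either direction, the exceptions being Rpl22, Rps24 and Rps25. For 27 it lay inside a 1.3-fold change. The median width of the interval was 0.40 log2 units, against 0.37 over all genes. Of the 35 genes 18 lay in the top 10% of all genes by mean value, and 1 of these 18 (Rpl7l1) passed the test. Of the 2006 other genes at that level, 305 (15.2%) rose and 346 (17.2%) fell. The median size of the change, regardless of sign, was 0.05 in the 18 genes, Rpl7l1 included, and 0.17 in the 2006 others. These sets were not matched for signal, as the median of the mean values was 12.60 in the 18 and 11.98 in the others. The highest value on any array was 14.23, and whether values near it are compressed was not tested.

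Rpl22 (Entrez gene 19934) fell with PDGF-BB and had the smallest p of the family. It encodes an RNA-binding protein on the surface of the large subunit that most cells can spare for bulk translation and that is needed in T cell development. Its log2 values were 10.98, 11.08 and 11.03 on control arrays 1, 2 and 3 and 10.59, 10.69 and 10.51 on PDGF-BB arrays 1, 2 and 3. Every PDGF-BB array lay below every control array, and the gap between the groups was wider than the range within either. The means were 11.03 ± 0.05 and 10.60 ± 0.09 (SD, n = 3 each), a 1.35-fold decrease (log2 change -0.43, SE 0.07, 95% interval -0.59 to -0.27, limma adjusted p = 0.0056). The call held in each of the 13 alternative fits, with adjusted p between 0.0046 and 0.025.

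Rps25 (Entrez gene 75617) rose with PDGF-BB. It encodes a protein of the small subunit that several viral and cellular internal ribosome entry sites need for initiation. Its log2 values were 7.63, 7.34 and 7.11 on control arrays 1 to 3 and 8.08, 8.04 and 7.90 on PDGF-BB arrays 1 to 3. The PDGF-BB arrays lay close together and above all controls, while the controls were spread over a wider range. The means were 7.36 ± 0.26 and 8.01 ± 0.09 (SD, n = 3 each), an estimated 1.57-fold increase (log2 change 0.65, SE 0.13, 95% interval 0.34 to 0.96, limma adjusted p = 0.014). The control mean was below a background level of 7.81, and the PDGF-BB mean was not far above it. The fold is therefore uncertain and may be understated. This level is percentile 90 of the means of 19 markers of lymphocytes, mast cells and erythroid cells, taken as absent from pericytes. No other of the 35 genes had a group mean below that level. Without PDGF-BB array 1 the adjusted p was 0.054, and over all alternatives it ranged from 0.0042 to 0.054.

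Rpl7l1 (Entrez gene 66229) rose by a small and even amount. Its protein resembles Rpl7 and belongs to large subunit precursors in the nucleolus. The log2 values were 12.80, 12.81 and 12.76 on control arrays 1 to 3 and 13.02, 13.06 and 13.01 on PDGF-BB arrays 1 to 3. The arrays of each group were nearly equal, and the groups did not overlap. The means were 12.79 ± 0.03 and 13.03 ± 0.03 (SD, n = 3 each), a 1.18-fold increase (log2 change 0.24, SE 0.05, 95% interval 0.11 to 0.36, limma adjusted p = 0.020). The call was lost without control array 3 (adjusted p = 0.063), PDGF-BB array 1 (0.058) or PDGF-BB array 2 (0.078), and over all alternatives the adjusted p ranged from 0.011 to 0.078. Among the 34 core ribosomal proteins, leaving out Rpl7l1, 1 rose and 1 fell, against 10.1% and 11.4% of all genes.

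A further 3 genes, singled out after their values were seen, had groups that did not overlap but did not pass the test. Rps10, a protein of the beak of the small subunit that is ubiquitinated when ribosomes collide, measured 10.94, 10.77 and 10.81 in control and 10.53, 10.65 and 10.73 with PDGF-BB. The highest PDGF-BB array lay just under the lowest control (log2 change -0.20, SE 0.08, limma adjusted p = 0.12). Rps15, a small subunit protein whose tail reaches the decoding site, measured 13.40, 13.34 and 13.39 in control and 13.31, 13.22 and 13.28 with PDGF-BB (log2 change -0.11, SE 0.06, limma adjusted p = 0.23). Rpl30, a large subunit protein known in yeast to bind its own transcript, measured 11.98, 11.90 and 11.81 in control and 12.03, 12.09 and 12.12 with PDGF-BB (log2 change 0.18, SE 0.06, limma adjusted p = 0.095). With the called genes this makes 6 of the 35 without overlap, 3 higher and 3 lower, where 37.6% of all genes had none (16.9% higher and 20.6% lower).

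**Figure D2:**
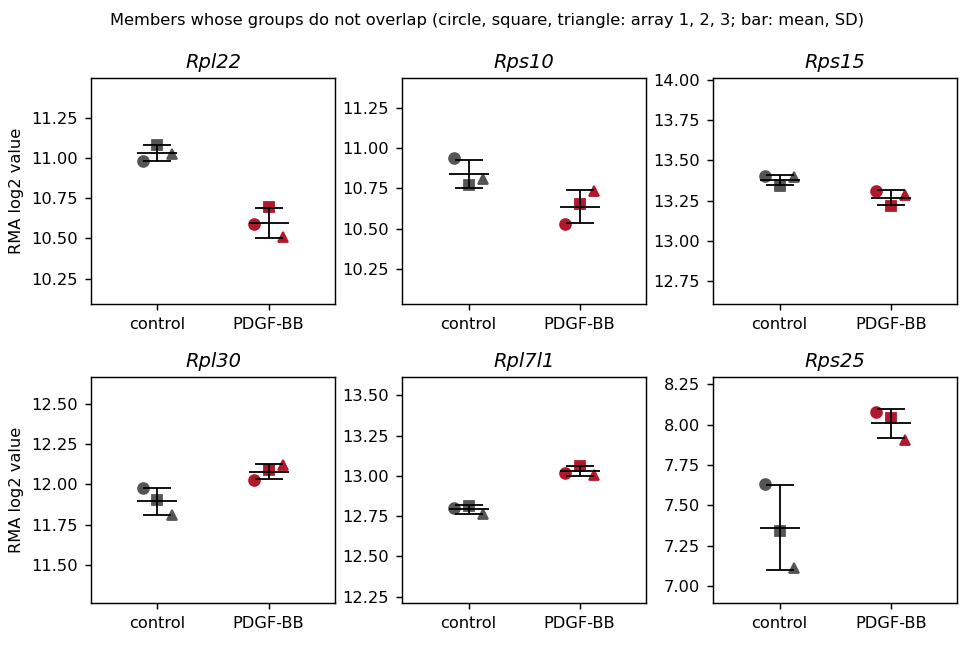
RMA log2 value on each array (circle, square and triangle for arrays 1, 2 and 3) with mean and SD for the 6 ribosomal protein genes whose groups do not overlap; each panel spans 1.4 log2 units. Rpl22, Rps25 and Rpl7l1 passed the test, whereas Rps10, Rps15 and Rpl30 differ by 0.11 to 0.20 log2 units.

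Among the 15 small subunit genes 1 rose (6.67%), none fell in limma, and the median log2 change was -0.01. Over all genes 10.1% rose and 11.4% fell. The gene with the largest change after Rps25 was Rps24, one of the genes mutated in Diamond-Blackfan anaemia. It measured 9.21, 8.60 and 8.44 in control and 9.07, 9.53 and 8.89 with PDGF-BB. The groups overlapped, and the array pairs of the same number differed by -0.14, 0.93 and 0.45, so the log2 change of 0.41 was not distinguishable from the spread (95% interval -0.14 to 0.96, limma adjusted p = 0.28). Rps24 and Rps6 had the widest spread within groups of the 35, with pooled SDs of 0.37 and 0.31. Rps6, the substrate of the S6 kinases downstream of mTORC1, measured 9.90, 9.85 and 9.34 in control and 9.63, 10.01 and 9.40 with PDGF-BB. In both groups the third array was the lowest, and the log2 change was -0.01 with an interval from -0.48 to 0.45 (limma adjusted p = 0.97).

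Rpsa, which is also known as the laminin receptor precursor, measured 8.78, 9.06 and 9.0 in control and 9.21, 9.39 and 9.03 with PDGF-BB. Only PDGF-BB array 3 fell within the control range (log2 change 0.26, 95% interval 0.00 to 0.53, limma adjusted p = 0.15). Rps19, the gene most often mutated in Diamond-Blackfan anaemia, measured 11.39, 11.48 and 11.37 in control and 11.59, 11.81 and 11.47 with PDGF-BB. It too overlapped in PDGF-BB array 3 alone (log2 change 0.21, 95% interval -0.01 to 0.43, limma adjusted p = 0.18). Rps27, a zinc finger protein whose paralogue Rps27l is a p53 target, had the lowest change of the subunit at -0.21 (95% interval -0.42 to 0.01, adjusted p = 0.16). Rps3, which lines the mRNA entry channel, measured 12.03 ± 0.18 and 12.03 ± 0.10 (SD, n = 3 each), a change of 0.00 with an interval from -0.24 to 0.25. Rps2 and Rps26 had changes of -0.09 and -0.05, and Rps15a, Rps9, Rps14 and Rps21 lay between -0.09 and 0.13.

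Among the 19 large subunit genes none rose in limma, 1 fell (5.26%), and the median log2 change was -0.02. The shares of all genes were 10.1% and 11.4%, and a difference between the subunits was not tested. Apart from Rpl22 their changes ran from -0.11 (Rpl27a) to 0.18 (Rpl30). The stalk of the large subunit, which recruits and activates the elongation factors, is built from Rplp0, Rplp1 and Rplp2. Rplp0, often used as a reference gene, measured 13.70 ± 0.05 in control and 13.72 ± 0.08 in treated cells (SD, n = 3 each), and its log2 change was 0.02 with an interval from -0.14 to 0.17. Rplp1 changed by -0.04 (95% interval -0.20 to 0.12) and Rplp2 by 0.03 (-0.26 to 0.33), and none of the stalk genes passed the test. Rpl23 and Rpl26 act outside the ribosome on the p53 pathway, the first by binding MDM2 and the second by binding p53 mRNA. Their log2 changes were -0.10 (95% interval -0.26 to 0.07, limma adjusted p = 0.41) and 0.05 (-0.17 to 0.27, adjusted p = 0.79). Rpl13a, which leaves the ribosome after interferon-γ to silence inflammatory mRNAs, measured 13.21 ± 0.10 and 13.24 ± 0.11 (SD, n = 3 each), a change of 0.03 with an interval from -0.17 to 0.23.

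None of the remaining large subunit genes passed the test. Rpl4, which lines the exit tunnel, changed by -0.07, and Rpl8, which lies near the peptidyl transferase centre, by 0.02. Rpl6 and Rpl37 had the lowest mean values of the large subunit, 8.02 and 8.07 in control, and changes of 0.10 and -0.04. These means lie not far above the background level of 7.81, where a change may be understated. Those of Rpl14, Rpl21, Rpl29, Rpl31, Rpl34 and Rpl35a lay between -0.10 and 0.09. Adjusted p-values of the 32 uncalled genes of both subunits ran from 0.095 to 0.999 in limma. Mean values of the 35 genes spanned 7.68 to 13.89, but such a value depends on the probes as well as on the transcript, so it does not order the genes by abundance.

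Within each group the ribosomal protein genes tended to be high or low on the same arrays. Control array 1 was the highest control for 20 of the 35 genes and control array 3 the lowest for 24. Among the PDGF-BB arrays, array 2 was the highest for 23 genes and array 3 the lowest for 23. The same counts were not made over all genes. The median deviation of the 35 genes from their group mean was 0.08, 0.01 and -0.08 on control arrays 1 to 3 and -0.02, 0.07 and -0.07 on PDGF-BB arrays 1 to 3. Over all genes the same median stayed between -0.01 and 0.01 on each array. The 35 genes are thus not independent readings, and the median difference between arrays of the same number was -0.11, 0.05 and 0.02 for pairs 1, 2 and 3. This spread within groups is of the same size as most of the changes given above, and its source was not tested.

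**Figure D3:**
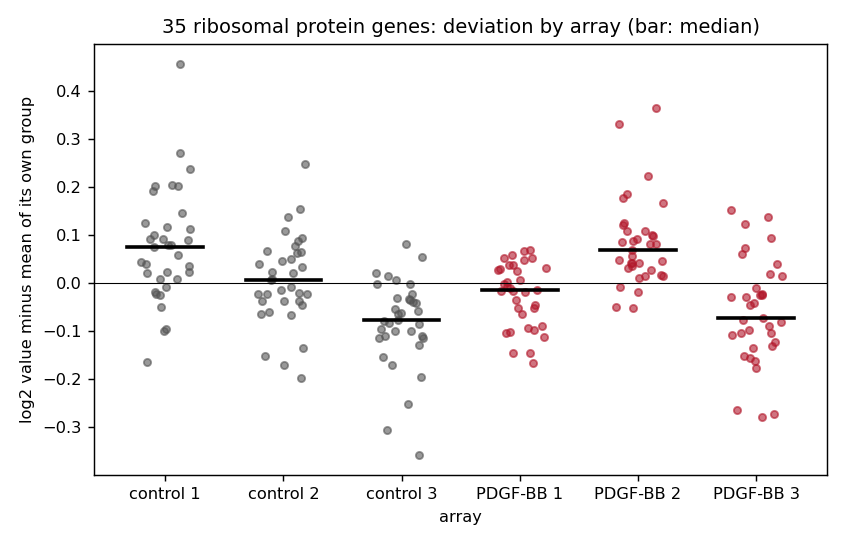
Deviation of each of the 35 genes from the mean of its own group on each array (points), with the median per array (bar), in log2 units. Control array 3 and PDGF-BB array 3 lie low (medians -0.08 and -0.07), and control array 1 and PDGF-BB array 2 lie high (0.08 and 0.07).

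Of 6 paralogues that the symbol rule left out, 2 rose and none fell in limma, where 10.1% of all genes rose and 11.4% fell. Rpl36al, an intact copy of Rpl36a, measured 12.17 ± 0.21 in control and 12.61 ± 0.05 in treated cells (SD, n = 3 each; log2 change 0.45, SE 0.11, limma adjusted p = 0.024). Rps27l measured 12.05 ± 0.08 and 12.29 ± 0.06 (SD, n = 3 each), with a log2 change of 0.24 (SE 0.07, limma adjusted p = 0.043). Both calls were lost when any 1 array other than control array 1 was left out (adjusted p = 0.065 to 0.078 for Rpl36al and 0.068 to 0.14 for Rps27l), and that of Rps27l also with the replicate number as a block (0.076). With the block Rpl10l and Rpl39l, retrogenes best known from testis, passed as lower (log2 changes -0.33 and -0.36, adjusted p = 0.017 and 0.015), after 0.054 and 0.13 without it; without control array 2 Rpl10l passed too (0.029). The means of Rpl39l, 6.30 in control and 5.93 with PDGF-BB, lay under the level of absent markers.

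Mouse ribosomal protein genes have many processed pseudogenes, and the probes were not checked for sequence shared with them. The array has 11 probe sets named for such pseudogenes, and none of them passed the test in limma, with 2 at an unadjusted p under 0.05. Some were bright: Rpl34-ps2 measured 12.67 ± 0.04 (SD, n = 3) in control, and Rps18-ps6 read 13.61 on each of the 3 control arrays. A value of a ribosomal protein gene may therefore include transcripts of its copies, and how far this holds was not tested.

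Genes that build and supply ribosomes were tested beside their protein components. Of 44 measured genes of ribosome biogenesis and RNA polymerase I, 30 rose and none fell in limma, with a median log2 change of 0.46 beside -0.01 for the 35 ribosomal protein genes. They include Nop56, a core protein of box C/D snoRNPs (log2 change 0.81, SE 0.08), Ddx21, a nucleolar RNA helicase (0.78, SE 0.08), Heatr1, a factor of small subunit processing (0.78, SE 0.10), and Nhp2, a protein of box H/ACA snoRNPs (0.64, SE 0.08). When 1 array was left out, between 22 and 32 of these genes rose. Of 17 chaperones and import factors of ribosomal proteins 6 rose, among them Bccip, which escorts Rpl23 (0.57, SE 0.08), Grwd1, which escorts Rpl3 (0.68, SE 0.10), and the importin Ipo9 (0.37, SE 0.06). This count was 3 when control array 3 was left out and 3 when PDGF-BB array 2 was, and the median of the list was 0.18. The list also holds Nacad, Naca and Btf3, which are not dedicated to ribosomal proteins. Naca and Btf3 changed by -0.18 and 0.00, and neither passed. Of 77 mitochondrial ribosomal proteins, which make the separate ribosome of that organelle, 16 rose and 2 fell, with a median of 0.15. The number that rose fell to 5 when control array 3 or the second PDGF-BB array was left out. It was 8 without PDGF-BB array 3, 9 without control array 2 and 10 without PDGF-BB array 1. Over all genes 10.1% rose and 11.4% fell by the same rule. The lists were chosen with earlier results of these data known, and the difference between these lists and the 35 genes was not tested.

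**Figure D4:**
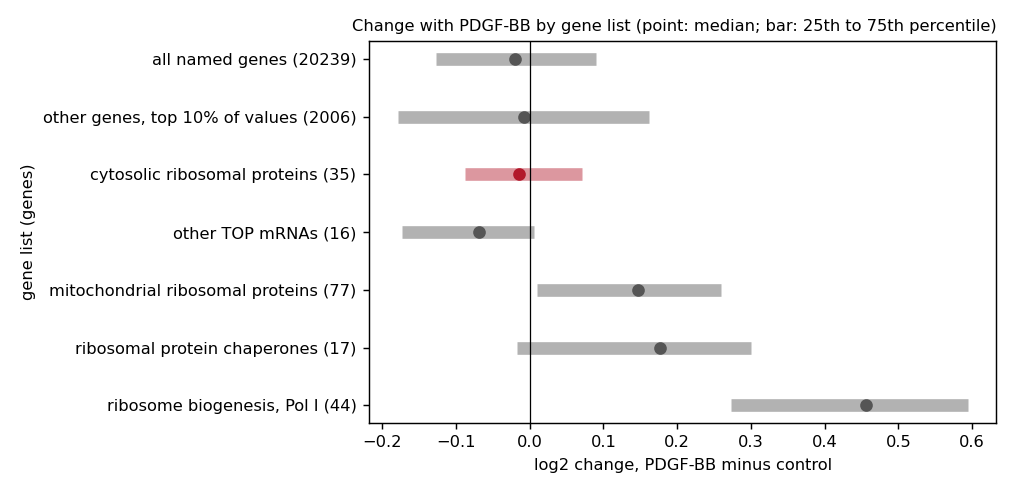
Median (points) and range from the 25th to the 75th percentile (bars) of the log2 change with PDGF-BB, by gene list, with the number of genes in brackets. The 35 cytosolic ribosomal protein genes, Rpl7l1 among them, have a median of -0.01, that of all genes is -0.02, and that of ribosome biogenesis genes is 0.46. The lists were chosen with earlier results of these data known.

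Of 16 other measured mRNAs of the TOP class none rose and 2 fell in limma, with a median log2 change of -0.07. The 2 are 12.5% of the list, and 11.4% of all genes fell. The groups did not overlap in 7 of the 16 that were lower and in 0 that were higher. Over all genes these shares were 20.6% lower and 16.9% higher. The 2 called lower were Eif4b, a helper of the initiation helicase (-0.32, SE 0.06), and Eif3f, a subunit of initiation factor eIF3 (-0.24, SE 0.06). Eif3f lost its call (adjusted p = 0.067 to 0.074) when control array 2 or 3 was left out, or when PDGF-BB array 1 or 3 was. With the replicate number as a block 1 rose and 3 fell, and without control array 1 Eef1g rose. Eef1a1 and Eef2, the elongation factors that carry tRNA to the ribosome and move it along, changed by -0.04 and -0.10. Naca and Btf3 are counted here and among the chaperones, and Npm1 here and among the ribosome biogenesis genes.

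Among 22 measured regulators of ribosomal protein synthesis 4 rose (18.2%) and 3 fell (13.6%) in limma, where 10.1% of all genes rose and 11.4% fell. Myc, a transcriptional driver of ribosome production, rose by 0.76 log2 units (SE 0.14), and Larp1, which binds the TOP tract, by 0.31 (SE 0.05). Pdcd4, an inhibitor of the helicase eIF4A, fell by 0.65 (SE 0.08), and Tia1, which binds TOP mRNAs in starved cells, fell by 0.55 (SE 0.08). Mtor itself had a change of -0.01. The number that rose was 2 without control array 3, and the number that fell was 2 without any 1 of the PDGF-BB arrays. Of 17 genes of ribosome quality control and turnover 2 rose (11.8%) and 1 fell (5.88%) in limma. Those that rose were Ascc3, the helicase that splits collided ribosomes (0.79, SE 0.06), and Eif6, which keeps the large subunit apart (0.50, SE 0.07). Sbds, which helps to release Eif6, fell by 0.34 (SE 0.06). Without control array 1, with each array centred on its median, or without dim genes, 4 of these genes rose. In the circuit from ribosomal proteins through MDM2 to p53, 1 of 10 genes rose (Sesn2) and 1 fell (Sesn1), and 2 fell without control array 1. The shares in the principal model, 10% each way, are near those of all genes. None of 3 measured snoRNA host genes passed in limma, with 1 at an unadjusted p under 0.05; 1 of them, Zfas1, passed as lower in the blocked fit and when PDGF-BB array 2 was left out.

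Over the whole series, Pearson's r across genes was 0.994 to 0.996 between arrays of a group and 0.973 to 0.986 between groups. The pericyte markers Pdgfrb (12.98 ± 0.11 in control, SD, n = 3), Acta2 and Cd248 were high in both groups, whereas Rgs5, Des, Abcc9 and Kcnj8 lay near or under the level of absent markers. Of 12 pericyte markers 1 rose (8.33%) and 2 fell (16.7%) in limma, where 10.1% of all genes rose and 11.4% fell. Anpep rose by 0.87 log2 units (SE 0.11, adjusted p = 0.0028 in limma). Cspg4 was higher by 0.91 but did not pass (SE 0.29, adjusted p = 0.065 in limma). Over the 12 markers the groups did not overlap in 2 that were higher, Anpep and Cspg4, and in 4 that were lower. Acta2, smooth muscle actin, went from 13.76 ± 0.06 to 12.69 ± 0.56 (log2 change -1.07, SE 0.25, adjusted p = 0.024 in limma), and Cd248 from 12.17 ± 0.16 to 11.84 ± 0.06 (log2 change -0.33, SE 0.09, adjusted p = 0.040 in limma). Neither fall held under every left-out array: 0 pericyte markers were called lower without control array 2 or without control array 3, and 1 was without any one of the remaining arrays. With the replicate number as a block, 2 pericyte markers were called higher and 3 lower. None of 10 endothelial markers had a mean above the level of absent markers, and none passed the test in limma, with 1 at an unadjusted p under 0.05, although 1 was called higher without PDGF-BB array 3. Of 10 macrophage markers 2 had a mean above that level, Cd14 and Cd68. Mpeg1 rose by 1.40 (SE 0.22) and Cd14 by 0.80 (SE 0.13) on the log2 scale in limma, while Lyz2 fell by 0.49 (SE 0.08) and Cd68 by 0.42 (SE 0.09). Leaving out either PDGF-BB array 1 or PDGF-BB array 2 left 1 macrophage marker called lower. Of 8 epithelial markers 3 had a mean above the level of absent markers, and none passed in limma, with 0 at an unadjusted p under 0.05. The part of these marker changes in the ribosomal protein values was not tested.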

How the data were processed

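Total RNA of 6 mouse pericyte cultures was measured on 1-colour arrays. The authors deposited log2 expression values made with RMA (background correction, quantile normalization over arrays, summary per probe set), per the submitters' processing notes; the software, its version and the probe set definition are not given there. The table holds 21225 probe sets, of which GEO's platform annotation names 20239 with 1 gene symbol and none with several; 986 (4.65%) are unnamed here. Each named gene has 1 probe set, and the Entrez numbers of all 35 members are in the RefSeq table (GRCm38.p6).

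Groups came from the sample titles. The model was limma 3.58.1 (R 4.3.3), lmFit and eBayes on all 20239 genes without a filter, two-sided, called at a Benjamini-Hochberg adjusted p under 0.05; it was tested on simulated data. Intervals are 95% and moderated. The precision is limited by the number of arrays (3 per group). The members and lists were chosen with earlier results of these data known. The named genes are called members (up to 12 in each direction by size of change), a fixed set of well-known members, the 3 highest, the 3 lowest and the 3 most variable members, and up to 4 genes of each list by p; every member is accounted for.

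Both groups carry replicate numbers 1 to 3. Across genes, same-numbered arrays deviated from their group means together (r = 0.25, 0.32 and 0.25, against -0.28 to 0.01 for other pairs). Deviations within a group cancel out, so a positive r of same-numbered arrays lowers that of other pairs. The pairing was seen in the data only, as the labels do not say what a number shares. The principal model therefore left it out, and the fit with that block was an alternative. Other alternatives were repeated quantile normalization, centring on the array median or on bright non-member genes, leaving out dim genes, all probe sets, a variance trend with robust moderation, leaving out each array, and leaving out Rpl7l1. No array copied another: the median absolute difference within a group was 0.0896 to 0.105. Of the 19 absent markers, Mcpt8 passed the test.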

Additional observations from a re-analysis of the deposited data

How the results depend on the processing

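The number of ribosomal protein genes that fell was 1 (Rpl22) under every alternative tried, and their median log2 change stayed between -0.06 and 0.01. The number that rose, 2 in the principal model, was 1 when genes under the 50th percentile of mean value were left out and 1 when Rpl7l1 was left out. The filter on mean value removes Rps25 and also the uncalled Rpl6, Rpl21 and Rpl37. When each array was left out in turn it ranged from 0 to 2, and it was 0 without PDGF-BB array 1. The number of all genes that fell, 2305 in the principal model, ranged from 1514 to 2188 when each array was left out. With the replicate number as a block 2 of the ribosomal protein genes rose and 1 fell, and over all genes 2213 rose and 2528 fell; the block changed no call among the 35 genes. Of all values of single ribosomal protein genes under the alternatives, 4 lost a call (3 of Rpl7l1 and 1 of Rps25, each with 1 array left out), and none gained a call or reversed. Fewer arrays, and for the filter fewer genes, entered these fits. The precision is that of 3 arrays per group, and values near the level of absent markers may understate a change.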
